A study of Mus musculus with 48 samples.

Results

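The progenitor peak lists of 18 ER-Hoxb8 clones were compared with each other. They were chosen from the 48 lists of the series by their title, which marks the progenitor stage, and by the code CRb1 in the name of the file. The members were clones 1 to 13, 15, 16, 22, 23 and 24, out of 24 progenitor lists. No monocyte list was used.

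ER-Hoxb8 cells are mouse bone marrow progenitors immortalised by Hoxb8 fused to the hormone-binding part of the oestrogen receptor. While the fusion protein is active the cells keep dividing as granulocyte-monocyte progenitors (GMP), and once it is turned off they mature. Each clone grows from a single cell, so that the descendants of single cells can be set beside each other. Per the labels, the cells were ER-Hoxb8 GMP cells of mouse bone marrow kept in RPMI with serum and stem cell factor (SCF). All 18 lists share this description and the progenitor stage. The labels used here give no mouse strain, age or passage number. ATAC-seq was the assay: the Tn5 transposase cuts and tags open chromatin, and a peak is a place where many tags pile up, such as an active promoter or enhancer. Each clone had 1 progenitor library, so a difference between 2 lists cannot be split into clone and library. Coordinates are mm9, counted from 1. Annotation of mm9 was not used here, so regions are named by position and the cell type was not checked against marker loci.

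Each list gave a first score per peak, which lay on an evenly spaced ladder in all 18 lists, so 1 step was read as 1 tag, and a second score in column 5 that reached at most 2.00. The lists held 77336 ± 23336 peaks (mean ± SD, n = 18), from 11114 in clone 11 to 122638 in clone 16. The other 16 lists lay between 55171 and 106708. Clones 1, 10 and 11 stood apart from the rest. Their first scores summed to 1381370, 942233 and 239988, against 2185940 to 3225450 in the other 15 lists. The median of column 5 was 0.775 in clone 1, 0.62 in clone 10 and 0.88 in clone 11, against 0.44 to 0.56 in the other 15 lists. At rank 10000 the peak of clone 11 stood on 16.0 tags, that of clone 10 on 96.9 and that of clone 1 on 125, against 200 to 414 elsewhere. Results are therefore given with and without these 3 lists.

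Merging peaks that overlapped by at least 1 bp gave 180876 regions, of which 48240 were in 1 list and 9148 in all 18 lists. Among 17 lists without clone 11, 31875 regions on chromosomes 1 to 19 and X were shared. The level of a region was the log2 first score minus the median of that list, so a level of 1 is 2 times the median region of the list. The main variation was described over 9128 shared regions, after 20 on unplaced sequence were left out.

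The lists resembled each other closely except for clone 11. Levels correlated with a mean r of 0.844 ± 0.129 (SD) over 153 pairs of lists, and the 10000 highest peaks of a pair had a mean Jaccard index, shared regions over all regions, of 0.724. Clones 4 and 5 were the most alike pair (r = 0.970), followed by clones 23 and 24 (r = 0.962) and clones 22 and 23 (r = 0.961). Clones 11 and 16, the shortest and the longest list, were the least alike (r = 0.410). Clone 11 had a mean r of 0.533 with the others, and every other list had one of at least 0.774. Clones 12 and 16 were each other's closest list (r = 0.906), as were clones 1 and 10 (r = 0.909). These correlations run across regions of 2 lists and describe those libraries.

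Variation between the clones fell mainly on few axes. Principal component axis 1 held 37.9% of the variance, axis 2 held 21.8% and axis 3 held 8.83%. Clone 11 alone carried 22.5% of the whole variance, clone 16 carried 10.5% and clone 10 carried 9.63%, against 1.57% in clone 4.

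The lists at the ends of axis 1 differed in how far their strong and weak regions lay apart. Its lowest scores were those of clone 11 (-0.62), clone 10 (-0.33) and clone 1 (-0.30), and its highest that of clone 13 (0.33). The SD of levels within a list ran from 0.743 in clone 11 to 1.19 in clone 13. The weakest 10% of regions were 1.33 higher in log2 level in clone 11 than in the median list and 0.46 lower in clone 13 (a shift of -0.46). The strongest 10% were lower in clone 11, with a shift of -0.47. Every region used here held a peak in clone 11, whose weakest peak had 10 tags, against 5 to 7 in the other lists. A region weak elsewhere was kept only where clone 11 had a peak, so its higher weak regions cannot be split from that choice. Loadings, which say how strongly a region follows an axis, rose from a median of -1.46 in the weakest 10% to 0.63 in the strongest 10% of regions by mean level.

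**Figure D1:**
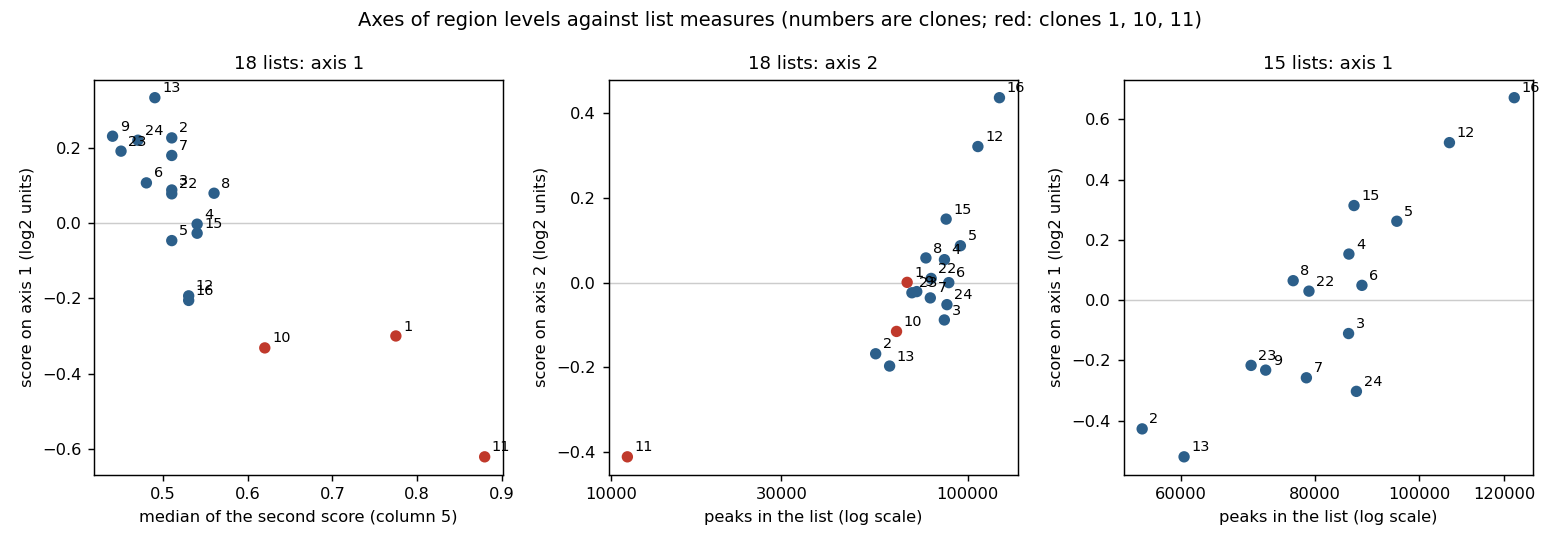
Scores of the lists on an axis (log2 units, vertical) against the median of column 5 or the number of peaks (horizontal, log scale for peaks); each point is 1 list, numbered by clone, with clones 1, 10 and 11 in red. Axis 1 of the 18 lists falls as the median of column 5 rises (r = -0.852), axis 2 rises with list length (r = 0.787), and axis 1 of the 15 lists without clones 1, 10 and 11 rises with list length (r = 0.876).

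Axis 1 followed column 5. Over the 18 lists, its score fell as the median of column 5 rose, with r = -0.852 and rho = -0.834 (two-sided permutation test, adjusted p = 0.00018 for r and 0.00048 for rho over 12 relations). Without clones 11 and 1, the farthest on column 5, r was -0.752. With clones 1, 10 and 11 left out and the same axis scores kept, r was -0.610 and rho -0.714 over 15 lists (permutation test, adjusted p = 0.0399 and 0.0125 over 9 relations). Axis 1 also fell with peak width (r = -0.730, permutation test, adjusted p = 0.00416), but rho was -0.483 with an adjusted p of 0.143. Clone 11 had the widest peaks, at 130 bp against 86 to 110 bp in the others.

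The relation of axis 1 to list length turned over when the 3 lists were left out. Over 18 lists, r with log10 list length was 0.473 and rho -0.152 (permutation test, adjusted p = 0.168 and 0.777). Over the 15 lists, the same scores gave r = -0.863 and rho = -0.786 (permutation test, adjusted p = 0.00036 and 0.00954 over 9 relations). The pooled r thus rested on the lists that stood apart. The summed first score of a list gave r = 0.764 with axis 1, and 0.351 without clones 11 and 10 (rho = 0.420 over all lists, permutation p = 0.0839).

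Axis 2 of the 18 lists followed list length, with or without the 3 lists in the correlation. The relation was not kept by the second axis of every alternative: r was 0.279 for rank percentiles and 0.344 after quantile normalisation, where axis 1 followed length instead (r = 0.911 in each), and -0.0961 on the second axis rebuilt without the 3 lists. Its scores ran from -0.41 in clone 11, through -0.20 in clone 13 and -0.17 in clone 2, to 0.32 in clone 12 and 0.44 in clone 16. Over 18 lists, r was 0.787 and rho 0.767 (permutation test, adjusted p = 0.00012 and 0.00192; the unadjusted p of r, 1e-05, is the smallest that the permutations can give), and r was 0.791 without clones 11 and 16. Over the 15 lists, the same scores gave r = 0.863 and rho = 0.711 (permutation test, adjusted p = 0.00036 and 0.0125). No relation of axis 2 to column 5, depth or peak width passed the test over 18 lists. Over the 15 lists, peak width passed by r (0.603, adjusted p = 0.0399) and column 5 by rho (0.601, adjusted p = 0.0447, permutation test). Axis 3 passed for none of the 4 measures, with r from -0.109 to 0.237, and its end lists were clone 10 (0.33) and clone 11 (-0.20).

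When the axes were rebuilt from the 15 lists over 36808 shared regions, the first axis held 43.8% of the variance and followed list length. Its scores rose from -0.52 in clone 13 and -0.43 in clone 2 to 0.52 in clone 12 and 0.67 in clone 16. The relation to log10 list length had r = 0.876 and rho = 0.768 (permutation test, adjusted p = 0.00027 and 0.0127 over 9 relations), and r = 0.811 without clones 2 and 16. The relation to column 5 was split, with r = 0.560 (adjusted p = 0.133) and rho = 0.650 (adjusted p = 0.044, permutation test). In these 15 lists, loadings on the first axis fell with mean level (r = -0.617 across regions), so strong regions tended to stand lower, and weak ones higher, in the longer lists.

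The regions at the low end of axis 1 stood far higher in clones 1, 10 and 11 than in the other lists. The region chr2:98502387-98502516 had a level from 2.42 in clone 9, through a median of 3.69, to 10.7 in clone 11. Clone 10 reached 7.99 there and clone 1 reached 6.54, while the highest of the other 15 lists was 4.24 in clone 3. Its neighbour chr2:98506707-98506836 ran from 2.73 through 3.82 to 10.8 with the same 3 clones on top. Next came chr9:35112977-35113106, at 0.74 in clone 9, 1.58 in the median list and 8.74 in clone 11. The other 2, chr9:3023459-3023588 and chr9:3022063-3022252, lie near the start of the assembled chromosome and reached 7.57 and 6.15 in clone 11, with medians of 0.60 and -0.81. In all 5 regions clone 11 was highest, clone 10 came next, clone 1 followed and clone 9 was lowest. How reads that map to several places were handled is not given in the sources used here.

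At the high end of axis 1 the spread was much smaller. The region chr4:129178061-129178271 ran from -1.62 in clone 10 through 0.26 to 0.79 in clone 13, and chr4:134323817-134324026 from -1.61 in clone 16 through -0.05 to 0.52 in clone 13. Both were lower in clones 1, 10, 11, 12 and 16 than in any other list. The remaining 3 were chr1:158404386-158404560, chr1:136302447-136302620 and chr5:139856428-139856618, whose lowest level was in clone 10 in each case.

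Regions at the high end of axis 2 were strong in the longest lists. The region chr5:143682516-143682701 ran from -0.82 in clone 13, through 0.13, to 1.31 in clone 12 and 1.40 in clone 16. The region chr3:133002498-133002635 ran from -1.13 in clone 2, through 0.04, to 1.10 in clone 12 and 1.25 in clone 16. In chr7:144670044-144670209 clone 16 stood at 0.98, followed by clone 12 at 0.18, over a median of -0.85. The last 2 of the 5, chr7:145429479-145429706 and chr3:151777820-151778071, were also highest in clone 16. At the low end, 3 regions near the assembled starts of chromosomes 9 and 12 and a pair on chromosome 4 were highest in clone 11. The pair, chr4:118220785-118220920 and chr4:118221157-118221317, stood at 3.12 and 3.01 in clone 11, with medians of -2.42 and -2.68.

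**Figure D2:**
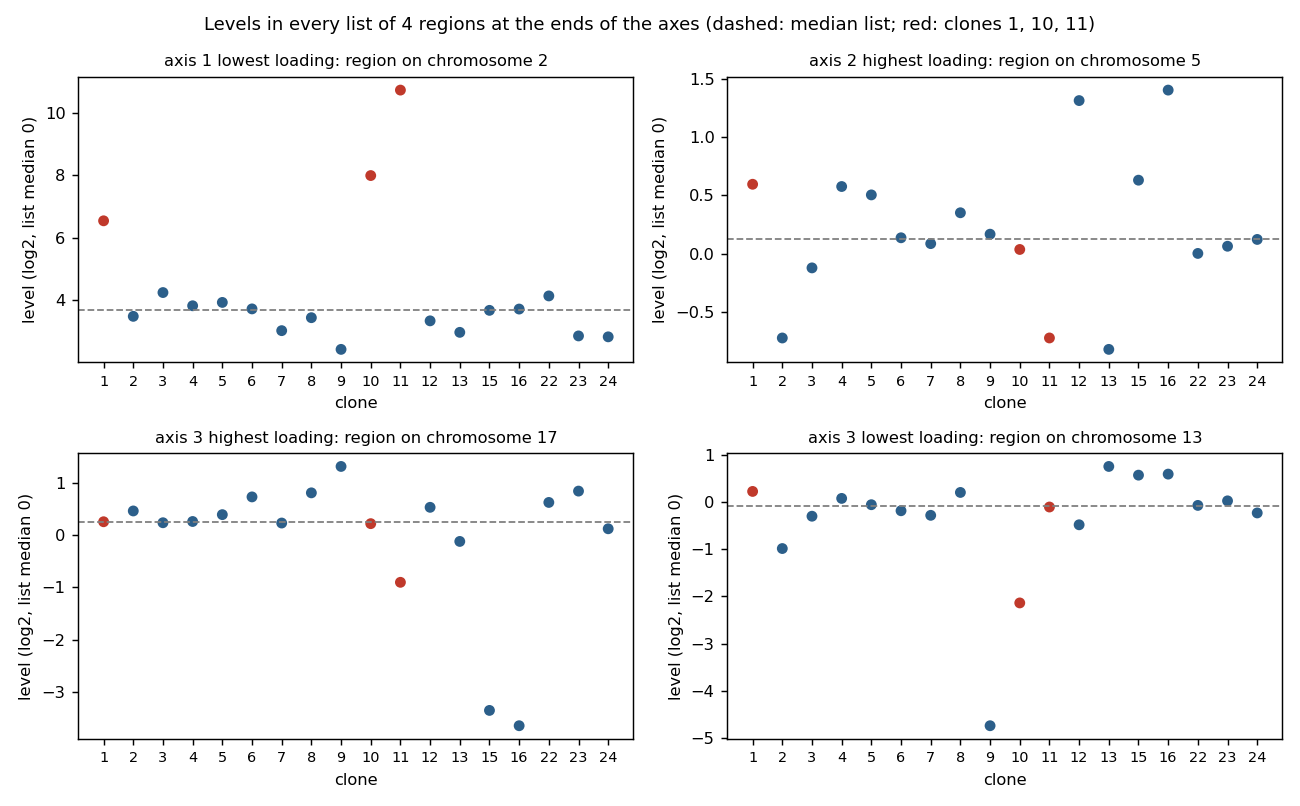
Levels of 4 regions at the ends of the axes in every list (vertical, log2 first score with the list median at 0; horizontal, clone); the dashed line is the median list and clones 1, 10 and 11 are red. On axis 1 clone 11 reaches 10.7, and on axis 3 clones 15 and 16 lie at -3.35 and -3.65 in one region and clone 9 at -4.74 in the other.

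Several regions at the ends of axis 3 stood far lower in 1 or 2 clones than in the rest. At chr17:63232305-63232524 the level was -3.35 in clone 15 and -3.65 in clone 16. The other 16 lists ran from -0.90 in clone 11 to 1.32 in clone 9 and did not overlap with them. At chr13:113254169-113254347 clone 9 stood at -4.74 and clone 10 at -2.14, while the other 16 lists lay between -0.99 and 0.75. At chr1:91837065-91837224 clone 9 was again lowest, at -4.18, over a median of -1.50. At chrX:136219422-136219642 clone 10 was lowest, at -4.18, over a median of -1.42. The region chr6:3132817-3133472 varied the other way: clone 15 stood at -0.01, clone 11 at -0.49, clone 13 at -1.19, clone 24 at -1.73 and clone 16 at -2.15, and the other 13 lists lay between -5.11 and -3.27. The 5th region of this end, chr13:73829982-73830266, ran from -5.53 in clone 9 to -0.49 in clone 11. Of the other 4 at the high end, on chromosomes 7, 11 and 13, all had a median level under -1, and clones 7, 16 or 24 were lowest.

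Many regions followed list length. By limma, with Benjamini-Hochberg adjustment over all 9128 regions, 2383 (26.1%) had a slope on log10 list length at an adjusted p below 0.05. The level rose with length in 1094 (12.0%) and fell in 1289 (14.1%). The regions that rose were strong ones, at the 81.7 percentile of mean level (median), and those that fell were weak, at the 29.2 percentile. Weak regions were kept only where clone 11 had a peak, so their falls cannot be split from that choice. The rises with the smallest adjusted p included chr14:45949278-45949525, at -1.11 in clone 11, 0.98 in the median list and 1.37 in clone 16, and chr14:15535369-15535502, at -0.49, 1.27 and 1.45 in the same order. The falls included chr4:118220785-118220920, described above, and chr10:121200224-121200379, at 1.05 in clone 11 and -2.22 in clone 12, with a median of -1.39. In all 10 regions named by this rule clone 11 was at one end: lowest in the 5 that rose and highest in the 5 that fell. Clone 11 was by far the shortest list, with 11114 peaks against at least 55171 in the others, so its place there cannot be split from the rule.

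Without clones 1, 10 and 11 a larger share of regions followed length, and strong regions fell where those of the full set rose. The sets of regions differ, since the full set needed a peak in clone 11. Strong and weak are percentiles within each set, and directions were not compared on the same regions. Over 36808 regions of the 15 lists, limma called 17173 (46.7%), of which 5215 (14.2%) rose with length and 11958 (32.5%) fell. The regions that fell were now the strong ones, at the 82.3 percentile of mean level, and those that rose were weak, at the 32.8 percentile. In the 17 lists without clone 11, 8287 of 31875 (26.0%) were called, with 2889 (9.06%) rising at the 32.3 percentile and 5398 (16.9%) falling at the 81.8 percentile. The fall with the smallest adjusted p was at chr7:19989441-19989587, where levels over the 15 lists ran from -1.07 in clone 16 and -0.35 in clone 12, through a median of 1.46, to 2.58 in clone 13 and 2.65 in clone 2. Its slope was -10.5 ± 1.02 (SE) log2 units per unit of log10 length (limma, adjusted p = 1.03e-05). At chr17:27069937-27070050 and chr19:4269206-4269356, the next 2, clone 16 was lowest, at 0.84 and -0.20, and clone 13 highest, at 3.79 and 3.15. The rise with the smallest adjusted p, chr4:151865733-151865898, ran from -2.03 in clone 2 through -0.54 to 0.71 in clone 16. These 6 regions were picked by the same measure after the 3 lists were seen to stand apart.

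Column 5 was followed by more regions in the full set. Of 9128 regions, limma called 3010 (33.0%), with 1655 (18.1%) rising and 1355 (14.8%) falling as the median of column 5 rose. Of the regions called for column 5, 1412 were also called for length, which is 46.9% of the column 5 calls and 59.3% of the length calls. Rising regions were weak, at the 15.7 percentile of mean level, and falling ones strong, at the 81.7 percentile. The weak ones were again kept only where clone 11 had a peak. The smallest adjusted p among rises was at chr17:13744045-13744184, where clone 11 stood at 3.85, clone 1 at 1.14 and clone 10 at 0.59, and the other 15 lists lay between -1.58 and -0.28. Its neighbour chr17:13745022-13745151 had the same 3 clones on top, at 4.55, 1.73 and 0.98. Among falls, chr2:154261956-154262130 stood at 0.36 in clone 11, 1.14 in clone 1 and 1.12 in clone 10, against 1.67 to 2.12 elsewhere. These 3 regions were picked by their slope on column 5, on which clones 1, 10 and 11 already lay outside the other 15 lists. The separation of the same 3 lists here cannot be split from that choice.

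The calls for column 5 rested on those lists. Leaving out clone 11 on the same 9128 regions cut the calls from 3010 to 874. Over the 31875 regions of the 17 lists, 2661 (8.35%) were called, with 562 (1.76%) rising and 2099 (6.59%) falling. Over the 36808 regions of the 15 lists, limma called 0 (0.0%) at an adjusted p below 0.05, with a smallest adjusted p of 0.157. At an unadjusted p below 0.05, 9873 regions (26.8%) passed there by limma, and no other tool was run. Over the 15 lists the median of column 5 spanned 0.44 to 0.56, against 0.44 to 0.88 over all 18. The loss of calls cannot be split from this narrower range.

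Position in the genome accounted for a small share of the axes but for sharp departures of single clones. Chromosome explained 1.11% of the loadings on axis 1, 3.00% on axis 2 and 5.42% on axis 3 (adjusted R squared), and 271 windows of 10 Mb explained 6.32%, 13.4% and 11.9%. Neighbouring regions 10 to 100 kb apart had loadings that correlated at 0.042 on axis 1, 0.240 on axis 2 and 0.143 on axis 3 over 4206 pairs, while mean level correlated at 0.012. Axis 2 was highest on chromosome 18 (median loading 0.44), X (0.38) and 3 (0.34) and lowest on chromosome 11 (-0.44), 19 (-0.31) and 17 (-0.23). Axis 3 was highest on chromosome 17 (0.56) and lowest on chromosome 1 (-0.40).

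Chromosome 17 stood higher in clone 9 than in any other list. The shift of a chromosome was the median deviation of its regions from the median list, minus that of all other regions. In clone 9 the shift of chromosome 17 was 0.57 in log2 (1.48-fold) over 468 regions. The other 17 lists lay between -0.15 and 0.09, so they did not overlap with it. In clone 9, 93.6% of the regions of chromosome 17 had a deviation above the median deviation of its regions on the other chromosomes. Among the 17 lists without clone 11 the shift was 0.60 over 1554 regions. Column 5 did not show it: with levels from that score the shift was -0.0032. All 9 windows of 10 Mb with at least 20 regions were raised, by 0.37 to 0.69, and clone 9 was the highest of the 17 lists in each of the 9.

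Chromosome 1 was raised in 2 clones. In clone 13 its shift was 0.41 and in clone 6 it was 0.36, over 511 regions, which are 1.33-fold and 1.28-fold. With levels from column 5 they were -0.0431 and 0.00258. The next list was clone 1 at 0.19, and clone 10 was lowest at -0.20. Clone 6 was raised evenly along the chromosome: all 19 windows lay above 0, from 0.16 to 0.43, with an SD of 0.063 over windows. In clone 6, 97.1% of the regions of chromosome 1 had a deviation above the median deviation of its regions on the other chromosomes. Clone 13 was less even, with 18 of 19 windows above 0, a range of -0.15 to 0.57 and an SD of 0.179. In clone 1 the windows were highest near the start, at 0.42 from 10 Mb, and lowest at the end, at -0.01 from 190 Mb. In clone 10 they ran from 0.08 at 10 Mb to -0.47 at 190 Mb. Taken as a factor with 20 levels, chromosome explained 14.6% of the deviations of clone 6 from the median list and 11.6% of those of clone 9, against 5.77% in clone 13 and 0.41% in clone 12 (adjusted R squared).

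**Figure D3:**
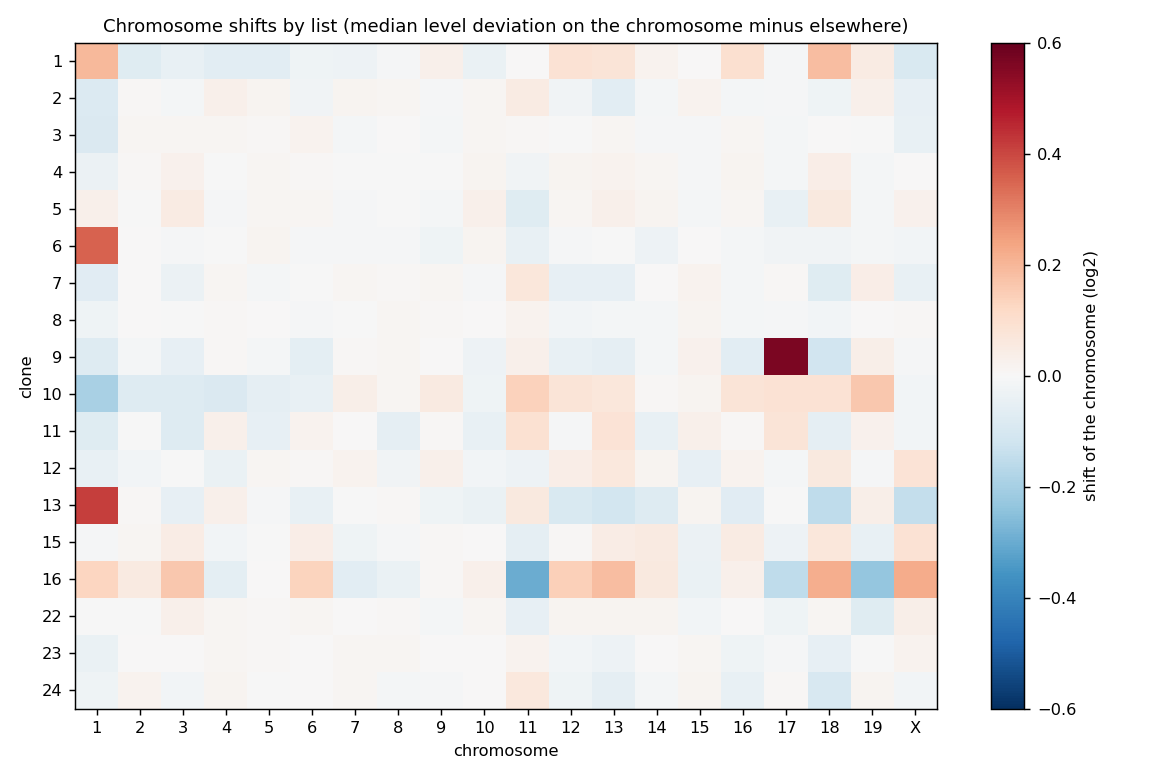
Shift of each chromosome in each list (colour, log2; red above and blue below the rest of the list), with clones in rows and chromosomes in columns. Chromosome 17 in clone 9 (0.57) and chromosome 1 in clones 13 (0.41) and 6 (0.36) stand out, and clone 16 departs on many chromosomes.

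Clone 16 departed on many chromosomes at once. Its shift exceeded 0.1 in size on 10 of 20 chromosomes, against at most 4 in any other list. It was lowest on chromosome 11 (-0.30, 802 regions) and 19 (-0.23, 323 regions) and highest on X (0.22, 148 regions) and 18 (0.22, 247 regions). Over the 20 chromosomes its shift correlated at -0.918 with the number of shared regions per Mb, which runs from 0.888 on X to 6.58 on chromosome 11. The same correlation was -0.858 in clone 15, -0.802 in clone 22 and -0.801 in clone 5, and had the other sign in clone 7 (0.791) and clone 2 (0.741). In this list, windows along a chromosome differed widely: on chromosome 11 they ran from -0.66 to 0.20 over 13 windows, and 3 lay above 0. Without clone 11 the shift of X turned over, to -0.08 over 630 regions of the 17 lists. Clone 16 was also the longest list.

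**Figure D4:**
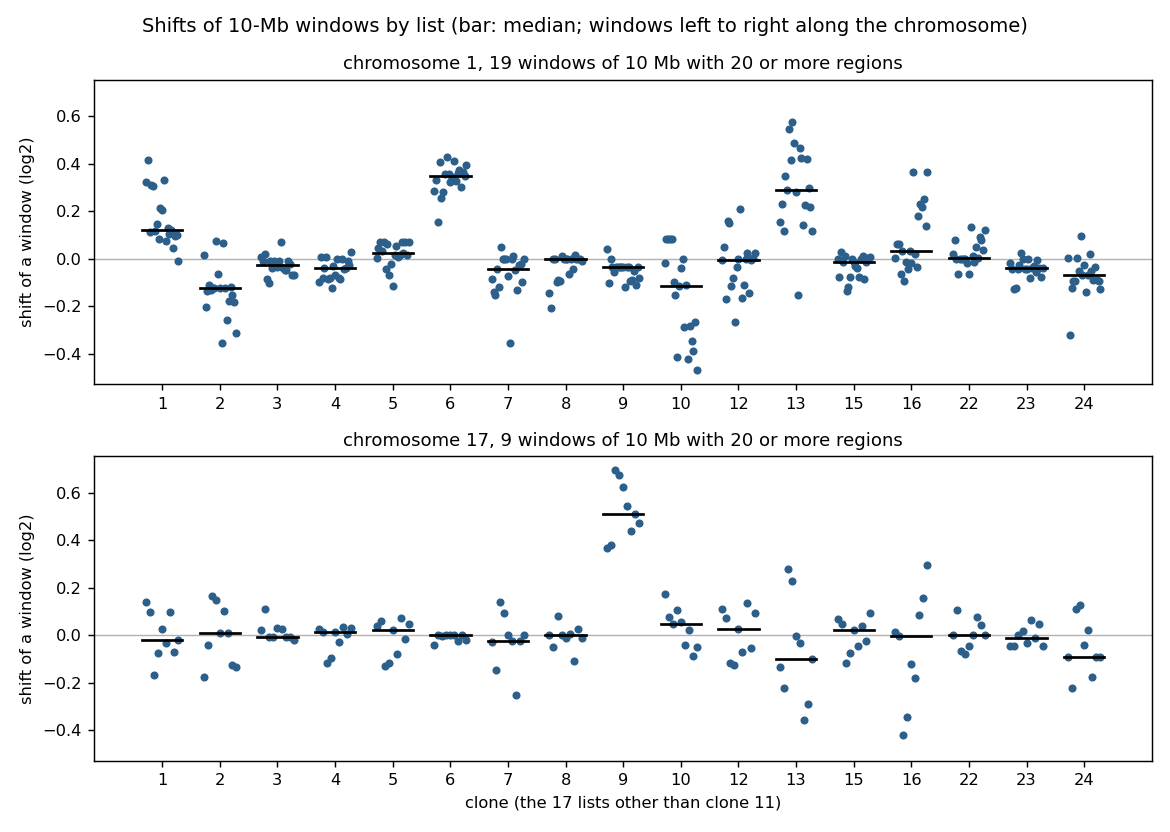
Shifts of 10-Mb windows with 20 or more regions on chromosome 1 (19 windows) and chromosome 17 (9 windows) in each of the 17 lists other than clone 11 (vertical, log2; horizontal, clone); each point is a window, in order along the chromosome, and bars are medians. All 9 windows of chromosome 17 are raised in clone 9, and all 19 windows of chromosome 1 are raised in clone 6.

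Across the lists, the shifts of 12 of 20 chromosomes followed list length or column 5 by rank. Over 40 relations, 1 chromosome passed for length and 1 for column 5 by Pearson's r, and 7 and 5 by Spearman's rho (permutation test, adjusted p below 0.05). Of the chromosomes described above, 11 (rho = -0.728, adjusted p = 0.00736), 19 (rho = -0.723, adjusted p = 0.00736) and 17 (rho = -0.692, adjusted p = 0.00949) stood lower in longer lists, and X (rho = 0.686, adjusted p = 0.0124) stood higher, by the permutation test. By r none of these 4 passed, with adjusted p from 0.205 to 0.338. The test was run over all 18 lists only, and for X it rested on 148 regions with a peak in clone 11. Without clone 11, X stood at -0.245 in clone 12 and -0.0849 in clone 16, against 0.203 in clone 2 and 0.103 in clone 13. The short lists of clones 1 and 10 were low too, at -0.272 and -0.191. Over the 15 lists, limma called 43.1% of the regions of X as falling with length and 6.11% as rising. For chromosome 1 neither measure passed: r was 0.148 with length (adjusted p = 0.628) and -0.0702 with column 5 (adjusted p = 0.872, permutation test).

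Beside these broad shifts, single regions stood apart in single clones. Among 31875 regions of the 17 lists, brought to 1 common distribution, 5 were at least 8-fold lower in 1 list while the other 16 lists stayed within 2-fold of the median, and 1 was at least 8-fold higher. The largest was chr2:19579198-19579384 in clone 9. The peak there had 13 tags, against 263 to 999 in the other 16 lists (median 564.5), a departure of -5.31 in log2. Clone 9 also had 37 tags at chr10:39089397-39089552, against 135 to 1215 elsewhere. Clone 8 had 17 tags at chr15:98507872-98508025, against 137 to 661. Clone 1 had 17 tags at chr3:87569149-87569264, against 64 to 566, and 15 at chr6:125102333-125102559, against 81 to 304. The higher one was chr12:82120310-82120454 in clone 13, with 341 tags against 8 to 67. Tags were not scaled for depth. The rule that picked the 6 regions itself sets the list named apart from the other 16. Counted without a condition on the other lists, 24 regions were at least 8-fold lower than the median list in clone 9, 19 in clone 16 and 12 in clone 1, against 0 in clone 5.

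Some clones lacked whole runs of neighbouring peaks. Regions held by at least 13 of the 17 lists, 56337 in all, were placed in order, and consecutive regions with no peak in a list were joined into runs. The 6 loci described hold the longest run of each list that lacked under 15% of these regions, where it had 5 or more regions. Other runs of these lists are not described, such as runs of 7 regions in clones 1, 3 and 13. Clone 15 had another run of 6 regions, at chr14:74238804-74916541. A list reports a peak only above its own minimum, which was 5 to 7 tags in these lists, so an absent peak is a level below that and not 0.

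The longest run lay at chr10:7960165-8694001, 734 kb with 12 regions. Clone 9 held none of them, clone 2 held 2 and clone 8 held 6, and the other 14 lists held 8 to 12, with 10 of them holding all. Summed over the locus, clone 9 had 0 tags, clone 2 had 26 and clone 8 had 108, against 165 to 943 in the other 14 lists (median 558.5).

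At chr16:97324736-97493189, 168 kb with 11 regions, clones 1 and 2 held none. Clone 1 lacked 10.9% of all regions counted and clone 2 lacked 16.0%, with 8 and 31 runs of 5 or more regions. The other 15 lists held 7 to 11, with a median of 510 tags and a lowest of 177. At chr5:105440686-105535033, 94.3 kb with 6 regions, clones 15 and 16 held none, and the other 15 lists held 5 or 6, with 242 to 623 tags. At chr17:72304472-72508587, 204 kb with 5 regions, clones 8 and 9 held none, and the other 15 held 4 or 5, with 72 to 551 tags. In clone 9 this gap was part of a longer run of 10 regions, chr17:72304472-72954176, over 650 kb. That run lay on the chromosome that was otherwise raised as a whole in clone 9.

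At chr7:75130052-75447741, 318 kb with 11 regions, clone 4 held none and clone 3 held 3, with 27 tags in sum. The other 15 lists held 7 to 11, with 172 to 1702 tags. At chr1:24317769-24560539, 243 kb with 8 regions, clone 13 held none. Clone 10, which lacked 22.9% of all regions counted, held 3 with 120 tags in sum, and the other 15 lists held 6 to 8 with 167 to 577 tags. At the 5 loci other than that on chromosome 10, clones 1 and 2, 15 and 16, and 8 and 9 were at 0 in pairs. Clone 4 was at 0 with clone 3 next, and clone 13 was at 0 with clone 10 next. Outside these loci, lists with numbers further apart also shared whole runs. Clones 1, 2 and 10 shared chr3:84917559-85346966. Clones 1 and 10 shared chr11:94591687-94790433 and chr7:151967338-152032326, and clones 2 and 10 shared chr17:11731760-12224369. What the clone numbers stand for beyond names is not given in the labels.

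**Figure D5:**
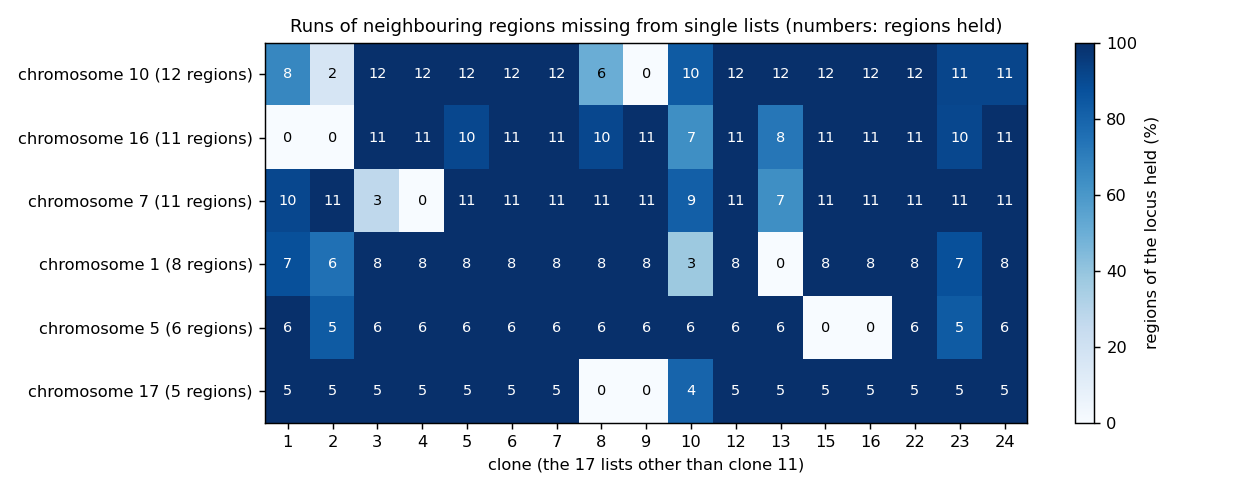
Number of regions held by each of the 17 lists other than clone 11 at 6 loci where a run of neighbouring regions was missing (rows, loci with their number of regions; columns, clones; colour, percent of the regions held). Clones 1 and 2 hold 0 of 11 on chromosome 16, clones 15 and 16 hold 0 of 6 on chromosome 5, and clones 8 and 9 hold 0 of 5 on chromosome 17.

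Pairs of lists also shared single missing regions. Of the regions missing from exactly 2 of the 17 lists, 61 were missing from clones 15 and 16 together, which is 14.9% of such regions of clone 15 and 24% of those of clone 16. Clones 12 and 16 shared 36, which is 17.8% and 14.2%. Clones 1 and 10 shared 944, which is 62.4% of those of clone 1 and 29.6% of those of clone 10. Clones 1 and 2 shared 187 and clones 8 and 9 shared 25. Relative to the product of the totals of the 2 lists, the ratio was 8.71 for clones 12 and 16 and 7.27 for 15 and 16. It was 2.43 for clones 1 and 10, 1.47 for 8 and 9 and 0.69 for 1 and 2. Clones 5 and 6, 4 and 5, and 3 and 4 had ratios of 8.06, 7.42 and 7.01, on 4, 4 and 8 regions. These shares depend on list length and are given as a description.

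Regions lost or gained in 1 list as a whole were few outside clone 11. A region held by all other 17 lists was missing 22891 times from clone 11, 60 times from clone 10, 45 times from clone 12 and 32 times from clone 16. In the remaining 14 lists this count ran from 3 to 22. The 5 with the highest levels elsewhere were all missing from clone 11. Of the 10 highest missing from another list, 9 had a peak of the same list within 211 bp, midpoint to midpoint. The other, chr9:3002066-3002195, was missing from clone 12, whose nearest peak was 705.5 bp away.

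Among regions in the 10000 highest peaks of 1 list and in no other list, clone 11 had 442, and the others had 1 to 21. The highest was chr17:39980010-39980113, which ranked 7 of 87388 peaks in clone 24. The nearest peak of any other list was 77934.5 bp away, between midpoints. In clone 13, chrX:84483671-84483758 ranked 20 of 60365, with the nearest peak of another list 59545.5 bp away. The next 3 belonged to clone 11, near the assembled start of chromosome 17 and end of chromosome X, at ranks 75 to 78. Peaks of other lists lay closer to these, at 147.5 bp on chromosome 17 and at 879.5 and 2746.5 bp on X.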

How the data were processed

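The authors deposited, per sample, a peak list with chromosome, start, end, a first score, a second score (column 5) and strand. The first score is used as a deposited signal and column 5 as a deposited score; what column 5 measures is not given in the sources used here. Reads were aligned with BWA to mm9, per the submitters' processing notes; the version, peak caller, filters, Tn5 offset and scaling are likewise not given. Tags are the first score divided by its ladder step (100% of first scores under 40 steps came within 0.1 step of a whole multiple).

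Levels, axes and shifts were computed with Python 3.11.15 and numpy 2.4.6. Slopes were fitted with limma 3.58.1 (intensity trend) in R 4.3.3, called at a Benjamini-Hochberg adjusted p below 0.05 and checked on simulated data. The simulated levels had independent noise of capped spread, with no shared axes and no list that stood apart in level. The check therefore cannot speak to calls that rest on such structure. Correlations used 100000 permutations. Relative depth, the inverse of the step, ran from 0.819 to 1.72; it assumes equal scaling of the lists, which is not stated. Lists are single libraries, so p-values measure the spread between lists. Regions are not replicates, and shifts, runs and departures carry no test.

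Named regions were, per axis, the 5 highest and 5 lowest loadings, the 5 calls of smallest adjusted p per direction and measure, the 6 largest chromosome shifts, and up to 5 lost and 5 gained regions; windows, runs, departures and the 15-list regions were added later. For lost regions outside clone 11, 10 were listed. Members and lists were chosen with earlier results of these data known. The other alternatives are listed in the closing section.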

Additional observations from a re-analysis of the deposited data

Results flagged for a closer look

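Peaks on the mitochondrial sequence lie outside the regions analysed. They held up to 13.5% of the summed first score, in clone 23, and 9.10% in the median list. Clone 10 had 0 mitochondrial peaks and the next lowest list, clone 3, held 2.09%. The part of this in the scores of other regions was not tested.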

How the results depend on the processing

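No paired analysis was possible because each clone number occurs in a single list here, the monocyte lists being left out, and no replicate block was fitted. Axes were matched by order of variance and signs were set to the axes of the 18 lists; where orders swap, a relation moves between axes, and the cause was not tested.

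The share of axes 1 to 3 (68.6%) was 48.8% from column 5, 62.6% without the shortest list, 72.5% in clones 1 to 13, 64.1% in bins of 1 kb, 61.4% without clones 1, 10 and 11, and 45.1% from presence in lists of 10000. The r of axis 1 with length was 0.911 by rank percentile, 0.911 after quantile normalisation, 0.743 among the highest 10000, -0.599 without the shortest list, -0.876 without clones 1, 10 and 11, and -0.156 from presence. That of axis 1 with column 5 was -0.551 without the shortest list, -0.560 without the 3 lists and -0.418 from presence. That of axis 2 with length was 0.279 by rank, 0.344 after quantile normalisation, 0.300 from column 5, 0.627 without the shortest list, 0.686 in clones 1 to 13, 0.469 among the highest 10000 and -0.0961 without the 3 lists. That of axis 2 with column 5 was 0.303, 0.255 and 0.0317 under the first 3 of these, 0.0683 among the highest 10000 and -0.736 from presence.

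Regions that followed length numbered 8287 without the shortest list, 1290 among the highest 10000 and 17173 without the 3 lists; those that followed column 5 numbered 1448 by levels from column 5, 1400 among the highest 10000 and 0 without the 3 lists. Alternatives differ in the regions tested: as shares, length had 26.0% without the shortest list and 25.6% among the highest 10000, against 26.1%, and column 5 had 8.35% and 27.8%, against 33.0%.

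Leaving out each list in turn gave 65.9 to 70.6% on axes 1 to 3, r from -0.552 (without clone 11) to 0.620 for axis 1 with length, -0.904 to -0.595 for axis 1 with column 5, 0.674 to 0.849 for axis 2 with length, -0.501 to -0.231 for axis 2 with column 5, -0.243 to 0.723 (without clone 11) for axis 3 with peak width, 1933 to 2576 regions for length, and 874 (without clone 11) to 3468 for column 5.

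On the percentile scale the 6 largest shifts were 14.6 (chromosome 17, clone 9), 9.96 and 9.10 (chromosome 1, clones 13 and 6), and -7.44, -6.81 and 6.27 (chromosomes 11, 19 and X, clone 16). From column 5 they were near 0, in the same order -0.0032, -0.0431, 0.00258, -0.0185, -0.00181 and 0.0126. Without the shortest list chromosome 19 in clone 16 had -0.156 and X -0.0849; without the 3 lists, -0.160 and -0.139. The mean r and mean Jaccard index of pairs stayed within 1 SD in every alternative run for them. Leaving out chromosomes 1 and 17, clones 1, 10 and 11, or single lists was chosen after seeing the data. The peak at rank 10000 stood on 16.0 tags in clone 11.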
